A study of Peromyscus maniculatus with 6 samples.

Results

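Expression of 10 genes for secreted signals of fibroblasts was followed: the cytokines Il6, Lif, Il11 and Csf1 and the chemokines Ccl2, Ccl7, Ccl20, Cxcl1, Cxcl10 and Cxcl12. They were taken by name from the deposited count table, in which each of the 10 symbols sits on 1 row, among 24281 genes in all. Ear punch fibroblasts came from 3 animals of the deer mouse Peromyscus maniculatus (stock BW, 4 weeks old), named BW35770, BW35772 and BW35773. Each animal gave 1 control library and 1 library from cells exposed to tunicamycin for 5 h, which makes 3 pairs and 6 libraries. Cells had been plated at 300000 per well for 24 h before treatment. The labels give tunicamycin at 5 mg per mL, which is high for cell culture. Whether the unit was meant to be micrograms could not be checked here, so the dose is uncertain. What the control wells received is not stated there. The cells had been passaged in culture, and each animal gave 1 library per condition.

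Tunicamycin stops cells from starting N-linked glycans and causes unfolded proteins to build up in the endoplasmic reticulum (ER). The ER stress sensors that respond are known to feed into NF-kB, the transcription factor family that drives many cytokine and chemokine genes. Interleukin-6, leukaemia inhibitory factor (LIF) and interleukin-11 belong to one cytokine family that signals through the shared receptor chain gp130, JAK kinases and STAT3. CSF1 is the survival and growth factor of macrophages. Chemokines are small secreted proteins that direct the migration of leukocytes, and fibroblasts are one of their sources in injured skin.

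After tunicamycin Lif, Cxcl10 and Cxcl1 rose, by 7.75-fold, 3.66-fold and 3.13-fold. Ccl2, the most abundant of the chemokines here, was 2.80-fold higher and missed the threshold (adjusted p = 0.0536). It passed once the 2 libraries of each animal were treated as a pair, as did a drop of Cxcl12 by 0.75 on the log2 scale. Il6, Il11, Csf1 and Ccl7 were not called, and Ccl20 was too low to judge. Of the 10 genes, 9 had enough counts to be tested, 3 of the 9 rose and 0 fell (edgeR quasi-likelihood test over 13503 genes, Benjamini-Hochberg adjusted p under 0.05, n = 3 animals). Of all genes tested, 1.78% rose and 0.792% fell. Before adjustment (edgeR p under 0.05) the counts were 5 higher and 0 lower, against 8.88% and 6.64% of all genes tested. DESeq2 called 4 higher and 0 lower, against 3.28% and 1.83% of the genes it fitted, and limma-voom 3 and 0, against 1.61% and 0.77%. With the animal as a term in the fit (the replicate block), 4 of the 9 rose and 1 fell, against 3.07% and 2.40% of all genes. The median log2 fold change of the 9 genes was 1.06, against -0.01 for all genes tested. CPM is the usual per-library scaling of counts to a common total, here after TMM normalisation except in the filter, which used library totals alone. Lif entered the test only through its treated libraries. The filter level of 0.238 CPM was reached in 1 of 3 control and 3 of 3 treated libraries. These shares and the median therefore describe the genes and do not support a change of the group.

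**Figure D1:**
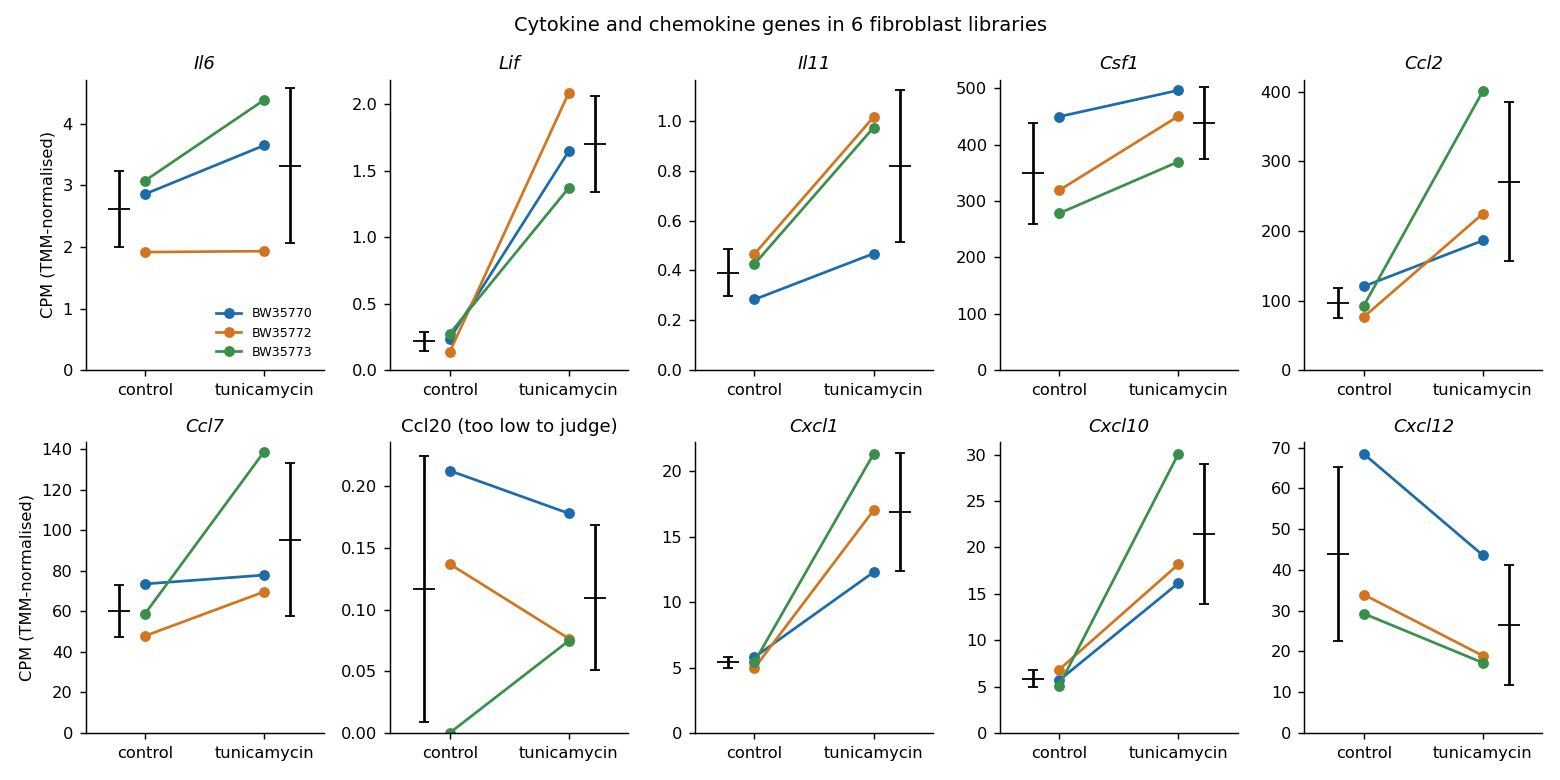
Level of each of the 10 genes in the 6 libraries, in CPM after TMM scaling (vertical axis, from 0, with its own scale in each panel), for control and tunicamycin cultures. Coloured points joined by a line are the 2 libraries of 1 animal, and black bars are the mean ± SD of 3 libraries; Lif, Il11, Ccl2, Cxcl1 and Cxcl10 have all treated points above all control points, while Cxcl12 is lower after treatment in each animal, from unequal starting levels.

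Standard ER stress genes rose. Ddit3 (the transcription factor CHOP), Atf4 and Hspa5 (the ER chaperone BiP) rose by 3.95 ± 0.23, 2.47 ± 0.15 and 1.47 ± 0.16 on the log2 scale (SE; edgeR adjusted p = 0.000488, 0.000507 and 0.00512). Libraries held 37852385 to 49352126 counts on genes, and the 10 genes together took 0.0473 to 0.0710% of them in controls and 0.0852 to 0.0971% after treatment. Fibroblast markers were abundant, with Vim at 9316 CPM and Col1a1 at 2224 CPM in controls. Of 14 leukocyte markers, 11 stayed under 1 CPM in every library, and Itgax, Tyrobp, Cd3e and Kit were at 0. The pan-leukocyte gene Ptprc had 1 count in all. The leukocyte sum was lower after treatment in each pair, at 183.5 and 159.8 CPM in BW35770, 127.2 and 72.6 in BW35772, and 90.9 and 71.8 in BW35773. It was mostly Cd68, a lysosomal gene that fibroblasts also express. Of 8 endothelial markers, 7 stayed under 1 CPM in every library, and their sum was 5.37 and 4.18 CPM in BW35770, 1.73 and 1.55 in BW35772, and 1.95 and 1.55 in BW35773, in each case lower after treatment. Of 9 keratinocyte markers, 8 stayed under 1 CPM, and their sum, mostly Krt14, went from 5.60 to 3.49, 9.59 to 4.23 and 23.2 to 13.2 CPM within the 3 pairs. Krt14 fell in the blocked fit and was not called without it. Chondrocyte markers differed by animal, at 1896 and 2110 CPM in BW35770 and between 6195 and 8981 CPM in the other libraries. The part of leukocyte, keratinocyte, endothelial and chondrocyte marker levels in the results below was not tested. In such bulk samples fewer cells of a type and less RNA per cell cannot be told apart.

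Levels of different genes were set against each other as CPM divided by annotated exon length in kilobases (RPKM). In control cultures Ccl2 stood highest at 216.3 ± 49.5 RPKM (SD, n = 3), followed by Ccl7 at 93.1 ± 20.0 and Csf1 at 76.8 ± 19.7. Then came Cxcl1 at 11.3 ± 0.87, Cxcl12 at 7.68 ± 3.75, Cxcl10 at 5.02 ± 0.75 and Il6 at 3.42 ± 0.81 RPKM. Il11, Lif and Ccl20 were at 0.62 ± 0.15, 0.22 ± 0.07 and 0.14 ± 0.13 RPKM. The libraries of Ccl7 and Csf1 overlapped, as did those of Cxcl1 and Cxcl12, Cxcl12 and Cxcl10, and Lif and Ccl20. After tunicamycin Ccl2 reached 605.6 ± 256.0 RPKM and remained in first place. Cxcl10, at 18.4 ± 6.44 RPKM, then stood above Cxcl12, at 4.65 ± 2.58, with no overlap between them. Lif, at 1.77 ± 0.37 RPKM, stood beside Il11 at 1.30 ± 0.48, and those libraries overlapped. Annotated exon lengths run from 447 bases for Ccl2 to 5711 for Cxcl12, and reads in untranslated exons that the annotation lacks would be missing from such values.

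Lif, whose product keeps stem cells undifferentiated and also acts on muscle, nerve and inflamed tissue, was the gene with the largest rise (ENSPEMG00000012330, scaffold KI615344.1, bases 2738725 to 2741726, plus strand, 4 exons). Its counts were 10, 5 and 11 in the control libraries of BW35770, BW35772 and BW35773 and 74, 109 and 55 in the treated ones. As CPM these were 0.24, 0.14 and 0.28 against 1.65, 2.09 and 1.37. All treated libraries lay above all controls, and the control level was low in every animal. The log2 fold change was 2.95 ± 0.44 (SE, edgeR adjusted p = 0.0188), from 0.22 ± 0.07 to 1.70 ± 0.36 CPM (SD, n = 3). Counting error alone left the ratio between 3.58 and 15.1 in BW35770, between 6.33 and 47.8 in BW35772, and between 2.58 and 10.6 in BW35773 (95% exact intervals). Lif lost its call when the BW35770, BW35772 or BW35773 control was left out (edgeR adjusted p = 0.0777, 0.108 and 0.101, in that order) and without the treated library of BW35770 or BW35772 (0.0614 and 0.0515), in fits with no block, and also without both libraries of BW35770 in the blocked fit (0.141). Over 17 alternatives its log2 fold change ran from 2.54 to 3.31 and its adjusted p from 8.44e-07 to 0.141.

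Il6, the best known member of that family and an inducer of the acute phase response, did not pass the test (ENSPEMG00000020620, scaffold KI615705.1, bases 617427 to 621639, plus strand, 5 exons). Controls of BW35770, BW35772 and BW35773 had 2.86, 1.92 and 3.08 CPM and their treated partners 3.65, 1.93 and 4.39 CPM. The groups overlapped, and animal BW35772 was lowest in both. The log2 fold change was 0.34 ± 0.37 (edgeR adjusted p = 0.765, and 0.579 with the block). With 70 to 176 counts per library, the counting interval of the ratio was 1.00 to 1.63 in BW35770, 0.74 to 1.39 in BW35772 and 1.13 to 1.81 in BW35773. Il11, which is linked to fibroblast activation and fibrosis, was low (ENSPEMG00000016289, scaffold KI615872.1, bases 564700 to 568503, plus strand, 6 exons). Its counts were 12, 17 and 17 in controls and 21, 53 and 39 after treatment, or 0.28, 0.47 and 0.43 against 0.47, 1.01 and 0.97 CPM. The lowest treated value, that of BW35770, stood just above the highest control, so the groups touched without overlap. For Il11 the fitted log2 difference was 1.06 ± 0.48, below the call threshold (edgeR adjusted p = 0.347, and 0.245 with the block).

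Csf1 was the most abundant of the 10 genes in CPM in every control library (ENSPEMG00000007138, scaffold KI615437.1, bases 3626820 to 3645949, plus strand, 10 exons). It held 58.8 to 64.9% of the counts of the 10 genes in controls and 37.5 to 59.2% after treatment. Its levels were 449.9, 319.2 and 278.3 CPM in the controls of BW35770, BW35772 and BW35773 and 496.6, 450.6 and 369.8 CPM in their treated partners. Every treated culture stood above its own control, but the groups overlapped. The log2 fold change was 0.33 ± 0.20 (edgeR adjusted p = 0.524). With the block its error was smaller (0.35 ± 0.12) and it was still not called (adjusted p = 0.152). Csf1r, the receptor of CSF1 and a gene of macrophages, had 0 to 5 counts per library.

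Ccl2 and Ccl7 attract monocytes through the receptor CCR2 and lie next to each other in this genome, 10147 bases apart on scaffold KI615759.1 and on the same strand. Ccl2 (ENSPEMG00000024087, bases 1562112 to 1563632, 4 exons) had 120.4, 76.7 and 92.9 CPM in the controls of BW35770, BW35772 and BW35773. The treated cultures had 186.3, 224.8 and 400.9 CPM. All treated libraries lay above all controls, with the smallest shift in BW35770 and the largest in BW35773. The within-pair ratios were 1.55, 2.93 and 4.31, with counting intervals of 1.49 to 1.602, 2.81 to 3.06 and 4.16 to 4.47. The log2 fold change was 1.49 ± 0.31 (edgeR adjusted p = 0.0536, not called) and with the replicate block 1.43 ± 0.26 (adjusted p = 0.0231, called). Ccl2 was called in 9 of 17 alternatives, among them DESeq2 (adjusted p = 4.65e-05) and the fit with library totals alone (0.0404). Its log2 fold change ran from 1.11 to 1.83 over them and its adjusted p from 1.67e-06 to 0.233. An unnamed gene model on the opposite strand spans Ccl2, with exons outside those of Ccl2, and had 0 counts in every library.

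Ccl7 (ENSPEMG00000022329, bases 1573779 to 1575491, 3 exons) was not called. It had 73.6, 47.9 and 58.8 CPM in the controls of BW35770, BW35772 and BW35773 and 77.9, 69.7 and 138.9 CPM in the treated cultures. The groups overlapped, because the treated culture of BW35772 stayed below the control of BW35770. The log2 fold change was 0.67 ± 0.28 (edgeR adjusted p = 0.315, and 0.144 with the block). It was called in 1 of 17 alternatives, the blocked fit without animal BW35772 (adjusted p = 0.0259). The 2 neighbours had a nearly fixed ratio in controls, where 1.58 to 1.64 Ccl2 counts were found per Ccl7 count. After treatment the ratio was 2.39, 3.22 and 2.89 in BW35770, BW35772 and BW35773, above all controls. The ratio was chosen after its values were seen, so a p-value for it cannot serve as a test. With 3 against 3 libraries, shuffled without regard to the pairs, the exact two-sided permutation p is 0.1, the smallest it can give.

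Ccl20, which attracts cells bearing CCR6, was too low to judge (ENSPEMG00000023283, scaffold KI615774.1, bases 1810433 to 1813667, minus strand, 5 exons). It had 9, 5 and 0 counts in controls and 8, 4 and 3 after treatment. A count of 0 in the control of BW35773 allows up to 0.0751 CPM (3 counts, counting error only), and the gene did not pass the filter, so no fold change is given.

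Cxcl1 attracts neutrophils through CXCR2 (ENSPEMG00000014263, scaffold KI615987.1, bases 1394416 to 1395794, minus strand, 4 exons). Control levels were close together, at 5.79, 4.96 and 5.43 CPM in BW35770, BW35772 and BW35773. The treated cultures had 12.3, 17.0 and 21.3 CPM. The groups did not overlap, and the within-pair ratios were 2.12, 3.43 and 3.93. Cxcl1 rose by 1.64 ± 0.23 on the log2 scale (edgeR adjusted p = 0.0165, and 0.00895 with the block). Without the BW35770, BW35772 or BW35773 control the call was lost (edgeR adjusted p = 0.0616, 0.102 and 0.109, in that order), and it held in the other 14 of 17 alternatives. Its log2 fold change ran from 1.46 to 1.88 and its adjusted p from 1.13e-08 to 0.109 over all 17.

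Cxcl10, a ligand of CXCR3 on activated T cells that is best known as an interferon-induced gene, rose by 1.87 ± 0.27 on the log2 scale (edgeR adjusted p = 0.0179, and 0.00962 with the block). It lies on scaffold KI615639.1, bases 1068816 to 1071081, plus strand, with 4 exons (ENSPEMG00000017213). Controls of BW35770, BW35772 and BW35773 had 5.67, 6.82 and 5.10 CPM and treated cultures 16.1, 18.2 and 30.1 CPM. All treated libraries lay above all controls, and the pair of BW35773 went from the lowest control to the highest treated value. Its ratio was 5.89, against 2.84 and 2.66 in BW35770 and BW35772. Cxcl10 was no longer called after removal of the BW35770, BW35772 or BW35773 control (edgeR adjusted p = 0.0777, 0.0758 and 0.115, in that order) and in the blocked fit without animal BW35770 (0.0502). Its log2 fold change ran from 1.49 to 2.04 and its adjusted p from 1.49e-09 to 0.115 over 17 alternatives.

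Cxcl12, the ligand of CXCR4 that stromal cells make without stimulation and that retains blood stem cells in their niche, was the 1 gene of the 10 that was lower in every pair and had enough counts to be tested (ENSPEMG00000007604, scaffold KI616298.1, bases 336200 to 349137, minus strand, 5 exons). Levels went from 68.5 to 43.6 CPM in BW35770, from 33.9 to 18.9 in BW35772 and from 29.3 to 17.2 in BW35773. The treated culture of BW35770 still lay above the controls of the other animals, so the groups overlapped. The within-pair ratios were alike, at 0.64, 0.56 and 0.59. Without the block the log2 fold change of -0.72 ± 0.44 was not called (edgeR adjusted p = 0.517). With the block Cxcl12 fell by 0.75 on the log2 scale, with an error of 0.12 (edgeR adjusted p = 0.0171). In blocked fits without animal BW35772 or BW35773 the adjusted p was 0.00797 and 0.0178, and without BW35770 Cxcl12 was not called. Over 17 alternatives its log2 fold change ran from -1.28 to -0.25, with adjusted p from 0.00797 to 0.884. BW35770 was also the animal with the fewest counts on chondrocyte markers, at 1896 CPM against 7240 and 8424 CPM in the other controls.

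**Figure D2:**
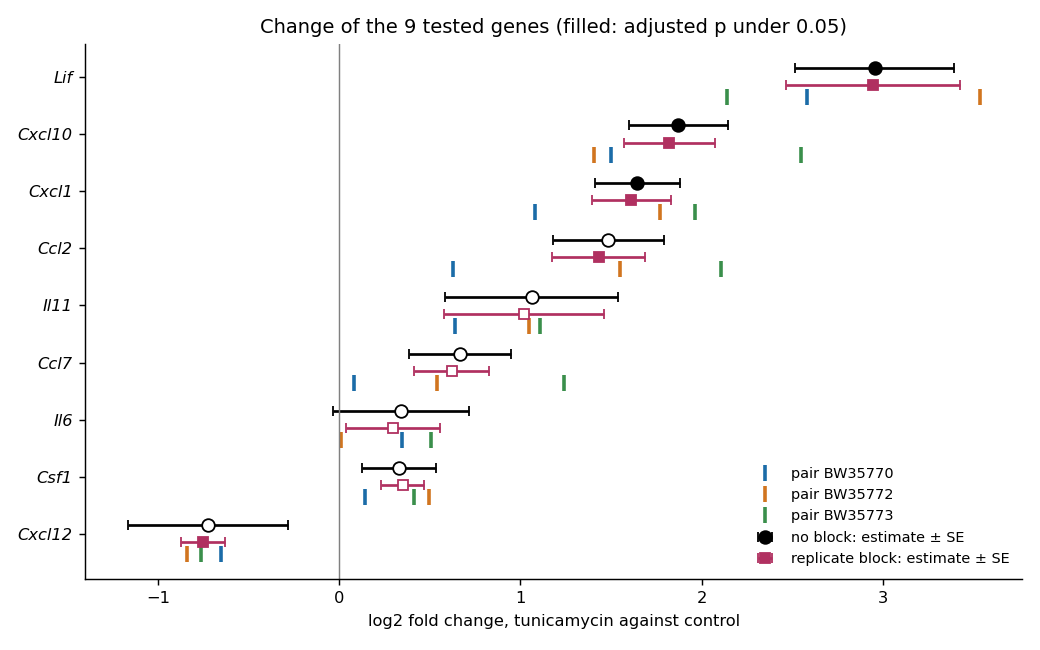
Log2 fold change (horizontal axis, tunicamycin against control) of the 9 tested genes, without the block (black circles) and with it (red squares), each with its SE; filled symbols have an adjusted p under 0.05, and coloured ticks are the differences of log2 CPM within each animal. Lif, Cxcl10 and Cxcl1 are filled in both fits, Ccl2 and Cxcl12 only with the block, and the block narrows the error of Cxcl12 from 0.44 to 0.12.

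The size of the shift differed among the 3 cultures. Of the 9 tested genes, 8 were higher and 1 was lower in all 3 pairs, against 20.7% and 21.7% of all genes tested. All treated libraries lay above all controls for 5 of the 9 genes (12.3% of all genes tested) and below them for 0 (9.98%). BW35773 had the largest difference within a pair for Il6, Il11, Ccl2, Ccl7, Cxcl1 and Cxcl10, which are 6 of the 9 genes. BW35770 had the smallest difference for 5 of them (Il11, Csf1, Ccl2, Ccl7 and Cxcl1), and its control was the highest of the 3 for Csf1, Ccl2, Ccl7, Cxcl1 and Cxcl12. Lif ran the other way, with its smallest difference in BW35773 (2.14 on the log2 scale) and its largest in BW35772 (3.54). Counting intervals of the ratio overlapped between all 3 animals for Il6, Il11 and Lif, and between BW35772 and BW35773 for Cxcl1. The order of those animals is therefore not resolved for these genes. How often all genes tested had their largest difference in BW35773 was not counted. With 1 culture per animal and condition the differences between animals have no replicate and were not tested.

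Chemokine genes lie in groups, and neighbours on the same scaffolds were read beside the 10 genes because of their position. The group around Cxcl1 holds Cxcl2, Cxcl3 and Cxcl5, which bind the same receptor, and another chemokine gene, Pf4. Cxcl2, 11138 bases from Cxcl1, rose by 1.71 ± 0.31 on the log2 scale, from 3.19, 1.97 and 2.95 to 7.75, 6.81 and 12.1 CPM in BW35770, BW35772 and BW35773 (edgeR adjusted p = 0.0361). Its call was lost in 6 of 17 alternatives, which included limma-voom (adjusted p = 0.0515) and removal of the BW35770, BW35772 or BW35773 control (0.0992, 0.149 and 0.156), the treated library of BW35770 (0.0865) or both its libraries (0.0596). Cxcl5, the most abundant of this group in CPM, had 109.8, 39.6 and 54.0 CPM in controls and 141.7, 129.7 and 222.1 CPM after treatment. It was not called without the block (log2 fold change 1.28 ± 0.39, edgeR adjusted p = 0.159) and was called with it (1.38, adjusted p = 0.0446). Cxcl3 had 3.81, 2.19 and 2.55 CPM in controls and 4.92, 7.18 and 16.5 CPM after treatment. It was not called in either fit (edgeR adjusted p = 0.123, and 0.0811 with the block). Of 17 alternatives, Cxcl3 was called in 3 and Cxcl5 in 4, among them DESeq2 (adjusted p = 0.00235 and 0.00839). Pf4, which lies between Cxcl3 and Cxcl5, had 1.18, 0.41 and 0.68 CPM in controls and 0.87, 0.69 and 1.07 CPM after treatment. Its groups overlapped, and it was not called with or without the block. In the other 4 genes of the group every treated library lay above every control, as it did in 12.3% of all genes tested. These 4 genes are related in sequence. How the authors' counting treated reads that map to several places is not stated in the labels, so the division of reads among the 4 is uncertain.

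In the other groups the neighbours were low. Next to Ccl2 and Ccl7, Ccl11 stayed near 1 CPM, at 0.77 ± 0.40 in controls and 0.55 ± 0.26 after treatment (log2 fold change -0.50 ± 0.59, edgeR adjusted p = 0.789). Ccl12 had 0 counts in every library, and Ccl8 had 1 count in all. Cxcl9 and Cxcl11, the neighbours of Cxcl10 that bind the same receptor, were also near the limit of detection. Cxcl9 had 27, 8 and 13 counts in controls and 2, 31 and 15 after treatment, and Cxcl11 had 10, 2 and 4 against 3, 3 and 7. Cxcl9 was not called (log2 fold change -0.22 ± 0.83, edgeR adjusted p = 0.944), and its sign turned without either or both libraries of BW35770. Cxcl11 and Ccl8 did not pass the filter.

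**Figure D3:**
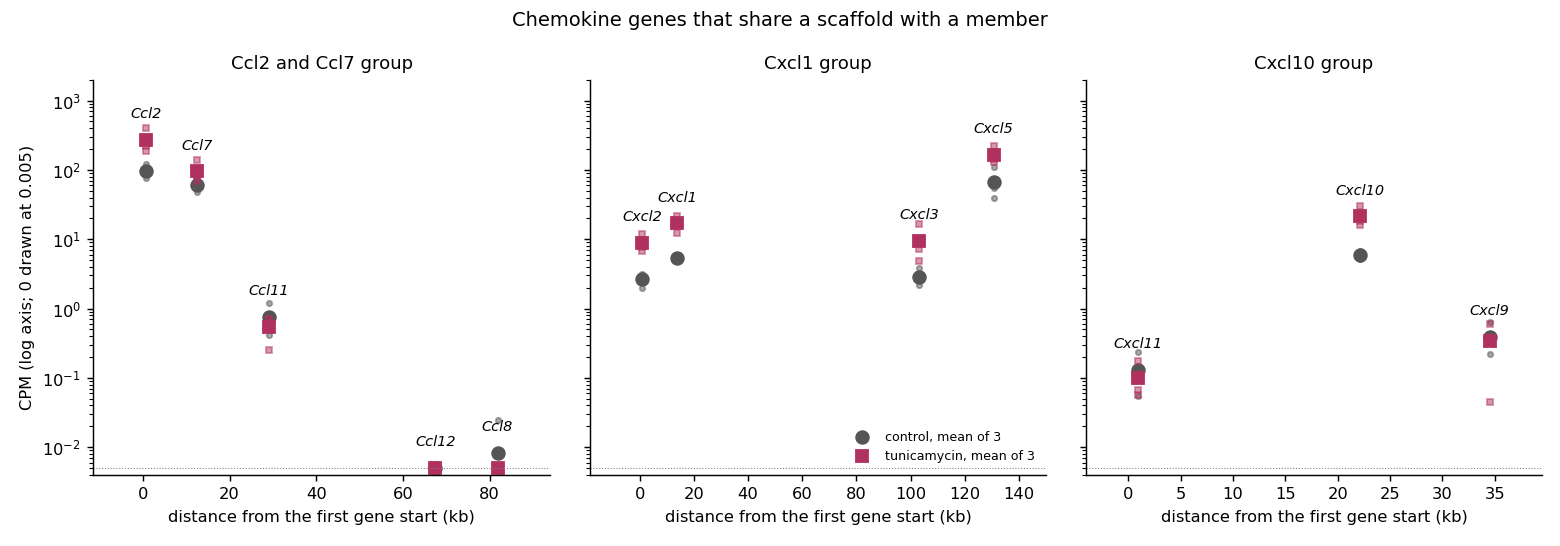
Mean CPM of 3 libraries (large symbols, log axis, 0 drawn at 0.005) and each library (small symbols) in control and tunicamycin cultures, against the distance in kb from the first gene start, for chemokine genes that share a scaffold with Ccl2, Cxcl1 or Cxcl10. Cxcl1, Cxcl2, Cxcl3 and Cxcl5 are each higher after treatment, whereas Ccl11, Cxcl9 and Cxcl11 are near or under 1 CPM in both groups. Only genes named Ccl or Cxcl are drawn, so Pf4 on the Cxcl1 scaffold is left out.

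Most other secreted cytokines and chemokines were low or not called. Of 47 found by name, 23 were tested, 2 rose and 0 fell, where 1.78% and 0.792% of all genes tested did so. Their median log2 fold change was 0.16. Before adjustment (edgeR p under 0.05) the counts were 4 higher and 1 lower, against 8.88% and 6.64% of all genes tested. DESeq2 called 4 and 1, against 3.28% and 1.83% of the genes it fitted. With limma-voom 1 and 0 were called, against 1.61% and 0.77%, and in the blocked fit 3 and 0, against 3.07% and 2.40%. The other gene that rose beside Cxcl2 was Cx3cl1 (fractalkine, a membrane-bound chemokine), from 48.6, 35.3 and 22.6 to 83.5, 121.5 and 132.5 CPM in BW35770, BW35772 and BW35773. On the log2 scale Cx3cl1 rose by 1.66 ± 0.30 (edgeR adjusted p = 0.0333). Removal of the BW35772 or BW35773 control ended the call (0.147 and 0.109), as did removal of the treated library of BW35770, BW35772 or BW35773 (0.0509, 0.0733 and 0.0556). Ccl5, a chemokine for T cells and monocytes, was lower after treatment in every pair, from 9.10, 10.4 and 7.28 to 5.72, 4.69 and 4.59 CPM, and was not called (log2 fold change -0.83 ± 0.22, edgeR adjusted p = 0.113), except by DESeq2 (adjusted p = 0.0123). The early inflammatory cytokines Tnf and Il1b and the growth factor Csf2 were not tested for lack of counts, and 27 of the 47 genes stayed under 1 CPM in every library.

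Among receptors of the 10 ligands, 8 of 17 were tested, and 0 rose and 0 fell in edgeR, also at an unadjusted p under 0.05, with the block, in DESeq2 and in limma-voom. Of all genes tested, 1.78% rose and 0.792% fell in edgeR. Receptor chains for IL-6 and LIF were present, while the IL-11 chain was not found under the names Il11ra or Il11ra1. Il6st, which encodes gp130, had 242.1 ± 65.3 CPM in controls and 298.7 ± 78.6 after treatment (log2 fold change 0.30 ± 0.25, edgeR adjusted p = 0.658). Il6ra, the IL-6 binding chain, had 10.79 ± 3.39 and 15.03 ± 4.18 CPM (0.48 ± 0.28, adjusted p = 0.498), and Lifr 13.8 ± 3.03 and 17.6 ± 3.28 CPM (0.36 ± 0.23, adjusted p = 0.536). Ackr3, which binds CXCL12 as well, was also tested and not called. Cxcr4, the main receptor of CXCL12, had 182, 89 and 39 counts in the controls of BW35770, BW35772 and BW35773 and 96, 137 and 41 after treatment. It was not called (log2 fold change -0.41 ± 0.57, edgeR adjusted p = 0.835), and its sign turned without the control or both libraries of BW35770. Of the other chemokine receptors, Ccr6 and Cxcr2 were at 0 in all 6 libraries.

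Of 24 tested genes of NF-kB signalling, 6 rose and 0 fell, where 1.78% and 0.792% of all genes tested did so, with a median log2 fold change of 0.55 against -0.01 for all genes tested. At an unadjusted edgeR p under 0.05, 12 were higher and 0 lower, against 8.88% and 6.64% of all genes tested. None was lower with the block, in DESeq2 or in limma-voom, against 2.40%, 1.83% and 0.77% of all genes. Birc3, an inhibitor of apoptosis, went from 24.99, 21.3 and 25.3 to 90.8, 97.7 and 121.5 CPM (log2 fold change 2.11 ± 0.15, edgeR adjusted p = 0.000865). Traf2, an adaptor of tumour necrosis factor receptors, rose by 1.07 ± 0.10 and Relb, an NF-kB subunit, by 1.37 ± 0.15. The others were Nfkb2, Nfkbia and Tnfaip3, the last 2 being feedback inhibitors. With the block Rel and Nfkbie were added, which gave 8, against 3.07% of all genes tested. Nfkb2 lost its call in 7 of 17 alternatives and Nfkbia in 3. Without the control of BW35772, 3 rose, where 51 of 13747 genes tested did so. DESeq2 called 11 higher, against 3.28% of the genes it fitted. Icam1 and Vcam1, adhesion molecules that NF-kB also drives, were not called, with log2 fold changes of -0.26 ± 0.25 and 0.09 ± 0.22, and the sign of Vcam1 turned without the control of BW35772 or the treated library of BW35770.

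In the JAK-STAT3 list, the route by which IL-6, LIF and IL-11 signal, 0 of 15 rose and 1 fell in edgeR. Of all genes tested, 1.78% rose and 0.792% fell. Before adjustment (edgeR p under 0.05) the counts were 4 higher and 3 lower, against 8.88% and 6.64% of all genes tested. DESeq2 called 1 and 2, against 3.28% and 1.83%, and limma-voom 0 and 1, against 1.61% and 0.77%. Socs3, a STAT3 target that shuts off gp130 signalling, fell from 124.6, 107.0 and 86.5 CPM in the controls of BW35770, BW35772 and BW35773 to 46.8, 29.0 and 22.9 CPM. Its log2 fold change was -1.69 ± 0.27 (edgeR adjusted p = 0.0245). Removal of the BW35770, BW35772 or BW35773 control ended the call (0.0915, 0.114 and 0.0831), as did that of the treated library of BW35772 (0.0733), and with the block and all libraries the adjusted p was 0.00105. With the block 2 rose and 2 fell, against 3.07% and 2.40% of all genes tested. Socs1, a related inhibitor, was then lower (-0.99, adjusted p = 0.0273), and the kinase genes Jak2 (0.55, adjusted p = 0.0494) and Pim1 (0.77, adjusted p = 0.0352) were higher. Lif was higher and Socs3 lower in each of the 3 pairs.

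Many cytokine transcripts are short-lived, and a separate list held proteins that control their decay. Of 18 tested, 0 rose and 0 fell in edgeR, where 1.78% and 0.792% of all genes tested did so. Before adjustment (edgeR p under 0.05) the counts were 4 higher and 0 lower, against 8.88% and 6.64% of all genes tested. DESeq2 called 2 and 0, against 3.28% and 1.83%, and limma-voom 0 and 0. With the block, where 3.07% of all genes tested rose, 1 of the 18 did. That was Zc3h12a, which encodes the RNase regnase-1 that cleaves Il6 mRNA, at 6.25 ± 1.503 CPM in controls and 12.02 ± 3.63 CPM after treatment (blocked log2 fold change 0.93, edgeR adjusted p = 0.0258). Tial1 and Cnot6 had log2 fold changes of 0.48 ± 0.13 and 0.28 ± 0.12 and were not called (edgeR adjusted p = 0.113 and 0.3).

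The list of interferon response genes also held receptor chains and signalling factors. Of its 24 tested genes 1 rose and 0 fell in edgeR, with a median log2 fold change of 0.16. Of all genes tested, 1.78% rose and 0.792% fell. Before adjustment (edgeR p under 0.05) the counts were 2 higher and 0 lower, against 8.88% and 6.64% of all genes tested. The blocked fit, DESeq2 and limma-voom each called 1 higher and 0 lower. Their shares over all genes were 3.07% and 2.40%, 3.28% and 1.83%, and 1.61% and 0.77%, in that order. The gene that rose was Ifngr1, a chain of the interferon gamma receptor, from 308.1, 228.1 and 212.1 to 672.9, 491.2 and 573.3 CPM (log2 fold change 1.22 ± 0.19, edgeR adjusted p = 0.0211). Ifngr1 was not called after removal of the BW35772 control, the BW35773 control or the treated library of BW35770 (0.108, 0.123 and 0.0713). Gbp2, a guanylate-binding protein, and the factor Irf2 had 0.43 ± 0.16 and 0.41 ± 0.19 and were not called (edgeR adjusted p = 0.25 and 0.366).

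**Figure D4:**
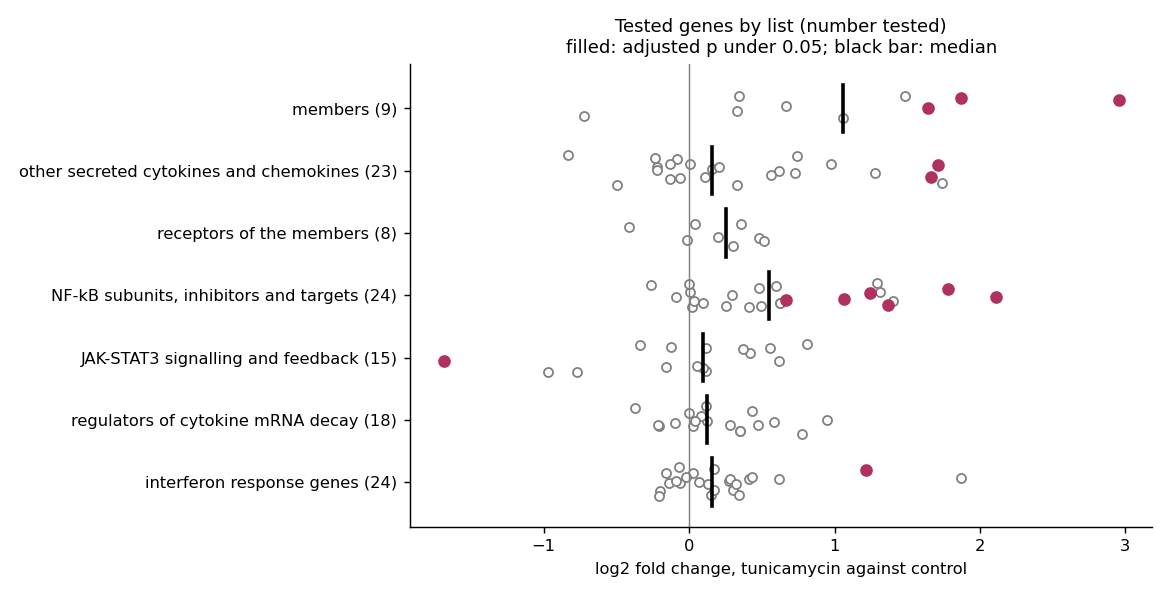
Log2 fold change (horizontal axis, tunicamycin against control) of every tested gene of the 10-gene set and of 6 related lists, with the number tested in brackets and the median as a black bar. Filled points have an edgeR adjusted p under 0.05: 3 of 9 in the set, 6 of 24 in NF-kB signalling, 1 lower gene (Socs3) in the JAK-STAT3 list, and none among the receptors and the decay regulators.

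For each of the 3 genes that rose, the named gene with the closest profile over the 6 libraries was looked up among 8959 genes, by the root mean square distance of centred log2 CPM values. It was Sesn2 for Lif (distance 0.28), Phgdh for Cxcl1 (0.15) and Manf for Cxcl10 (0.15). Sesn2, a stress-induced brake on mTORC1, went from 44.5 ± 3.07 to 243.8 ± 35.1 CPM. Phgdh, the first enzyme of serine synthesis, went from 35.2 ± 3.15 to 90.8 ± 18.9 CPM, and Manf, a secreted ER stress protein, from 176.9 ± 21.2 to 610.1 ± 193.3 CPM. Such a match rests on 6 libraries and is a description.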

How the data were processed

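The values the authors deposited are raw counts of reads for each gene and library. The submitters' processing notes name STAR 2.6.1, SAMtools 1.6, featureCounts and Subread. No source used here names the genome build, the annotation release or how multi-mapping reads were handled. Exon lengths and scaffold positions come from the same table. Libraries held 37852385 to 49352126 counts. No library was a copy of another (chi-square per degree of freedom 33.6 to 310.1 between pairs).

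The test was that of edgeR 4.0.16 (R 4.3.3), with filterByExpr (minimum count 10, minimum total 15; 13503 genes kept), TMM scaling, glmQLFit and glmQLFTest, two-sided, tunicamycin against control, with Benjamini-Hochberg adjustment over all tested genes and a threshold of 0.05. The SE is the size of a log2 fold change divided by the square root of F. Differences within pairs use log2 CPM with a prior count of 2. Counting intervals are exact (95%) and cover counting error only. Replicates are animals. The labels give the animal of each library, so libraries of 1 animal are a pair; across 13503 genes, which are not independent replicates, the 2 libraries deviated together from their groups (r = 0.66, 0.41 and 0.22). The replicate block adds the animal to the model. The fit was tested on simulated data.

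The 10 genes and all lists were chosen with earlier results of these data known. Named genes are the 10, the 3 smallest p-values of each of 6 lists, Hspa5, Ddit3 and Atf4, and the closest profile to each gene called. Chemokine neighbours, other list members and markers were named outside that rule, with values in view. Alternatives were DESeq2 1.42.0, limma-voom (limma 3.58.1), other scalings and filters, and leaving out each library or animal. No promoter or protein sequence was used here.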

Additional observations from a re-analysis of the deposited data

How the results depend on the processing

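The count of the 10 genes called higher was 3 without the replicate block and 4 with it. It ran from 0 to 5 when libraries or animals were left out: 0 when the BW35770, BW35772 or BW35773 control was removed, and 5 without both libraries of BW35772 in the blocked fit. These fits have fewer samples, and over all genes 46 to 79 rose without 1 control, against 241. All genes called higher and lower numbered 415 and 324 with the block and 604 and 338 in DESeq2, against 241 and 107. The count called lower was 0 without the replicate block and 1 (Cxcl12) with it, and 0 to 1 with libraries or animals left out. The 9 tested genes kept their direction in every alternative that tested them. Other scalings and filters gave 3 or 4 higher and 0 lower. Log2 fold changes of Ackr3, Pf4 and the cell type markers were read only without and with the block. Ackr3 was at -0.014 without the block and 0.0088 with it. Of the genes followed under all alternatives that tested them, Cxcl9, Cxcr4 and Vcam1 turned sign. Cxcl9 did so at 3 settings (0.31 without the control of BW35770, 0.29 without its treated library and 0.81 without both). Its lowest value with 1 library left out was -0.91, without the treated library of BW35772. Cxcr4 was at 0.18 without the control of BW35770 and 0.087 without both its libraries, and at -0.80 to 0.18 with 1 library left out. Vcam1 was at -0.027 without the control of BW35772 and -0.022 without the treated library of BW35770, and at -0.027 to 0.36 with 1 library left out. Over the 17 alternatives genes called higher and lower numbered 0 to 4 and 0 to 1 among other cytokines and chemokines (2 and 0 in the report), 3 to 11 and 0 in NF-kB signalling (6 and 0), 0 to 2 and 0 to 2 in the JAK-STAT3 list (0 and 1), 0 to 2 and 0 among decay regulators (0 and 0), and 0 to 1 and 0 among interferon response genes (1 and 0). Over all genes tested the same 17 fits called 46 to 806 higher and 15 to 826 lower. Scaling by library totals alone moved the median of all genes from -0.01 to 0.05 on the log2 scale. Depth limits Ccl20, Il11 and the controls of Lif, which had 0 to 17 counts per control library.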
